A study of Mus musculus with 12 samples.

Results

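The genes described here are 10 mouse genes of the antioxidant and NRF2 response, Nqo1, Hmox1, Gclc, Gclm, Txnrd1, Sod1, Sod2, Cat, Gpx1 and Prdx3. They were taken by name from a list drawn up with earlier results of these data known, by a rule that uses no measured value, and found through their Ensembl identifiers in an annotation of the mouse build GRCm38. All 10 were present among 55335 gene identifiers, and all 10 were among the 16932 genes that passed the filter on low counts and were tested. RNA was measured in cardiomyocytes, the contractile cells of the heart, of male mice after 7 weeks of diet. The design text gives an age of 7 to 8 weeks. Whether this was the age at the start of the diet or at sampling was not determined here. By the labels, ApoeKO_HFD (3 libraries) came from ApoE KO mice of the strain B6.129P2-Apoe tm1Unc/J on a Western high fat diet with 0.21% cholesterol. WT_HFD (2 of 3 libraries used) came from C57BL/6J mice on that diet, ApoeKO_CD (3 libraries) from ApoE KO mice on standard chow, and WT_CD (3 libraries) from C57BL/6J mice on chow. The knockout is carried in every cell and not in cardiomyocytes alone. The labels do not say whether the mice were littermates or whether each replicate was its own animal. The p-values below therefore describe variation among libraries, which may be technical.

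NRF2, encoded by Nfe2l2, is a transcription factor that KEAP1 holds in the cytoplasm and marks for destruction. Oxidants and electrophiles modify KEAP1, and NRF2 then enters the nucleus and binds antioxidant response elements together with small MAF proteins. Its target genes make glutathione, reduce quinones, degrade haem and recycle thioredoxin. In the heart, whose mitochondria release superoxide, superoxide dismutases turn superoxide into hydrogen peroxide, and catalase, glutathione peroxidases and peroxiredoxins remove the peroxide. Apolipoprotein E clears lipoproteins from blood, and mice without it have high plasma cholesterol, more so on a Western diet.

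The 11 libraries used held between 22130323 and 46424614 counts, of which the mitochondrial genome took 51.5% to 71.3%, and at least 9340449 counts were on nuclear genes. WT_HFD replicate 3 held 1347110 counts and is given apart, since most of its reads on overlapping gene pairs stood on the strand opposite to that of the other libraries. The 12 cardiomyocyte markers, Myh6 and Tnnt2 among them, summed to 91873 to 108401 CPM (TMM-scaled counts per 1e6, as all CPM below), and none was at 0 in any library. Apoe went against the labels on chow: it averaged 2.71 ± 0.668 CPM in the libraries labelled ApoeKO_HFD, 13.7 ± 7.42 in WT_HFD, 18.7 ± 10.2 in ApoeKO_CD and 2.88 ± 0.745 in WT_CD (SD, n = 3, 2, 3 and 3). Which part of the Apoe transcript the counts came from was not analysed here. Whether labels were exchanged between groups was not tested. Group names below are those of the labels, and every direction is that of the libraries labelled so.

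Levels were compared between genes per kilobase, and the order depended in part on the length used. Per kilobase of joined exons, the peroxisomal enzyme catalase (Cat) had 25.7 ± 5.16 CPM over the 11 libraries (SD, n = 11), the mitochondrial peroxiredoxin gene Prdx3 22.0 ± 4.82, the mitochondrial manganese superoxide dismutase gene Sod2 16.9 ± 2.35 and the cytosolic copper and zinc superoxide dismutase gene Sod1 10.8 ± 2.18. Per kilobase of the longest coding transcript, a length chosen after the data were seen, Sod1 had 66.9 ± 13.5 CPM, Sod2 28.9 ± 4.02, Cat 25.7 ± 5.16 and Prdx3 22.0 ± 4.82. The joined exons of Sod1 span 3970 bases and its longest coding transcript 641, and those of Sod2 10008 and 5861. These 4 genes thus stood above the other 6 by either length, but their order among themselves did not hold.

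Per kilobase of joined exons, Nqo1 followed at 6.17 ± 1.71 CPM, Gpx1 at 3.93 ± 0.867 and Txnrd1 at 3.26 ± 0.348, and per kilobase of the longest coding transcript Txnrd1 had 6.39 ± 0.680, Nqo1 6.17 ± 1.71 and Gpx1 5.28 ± 1.17. Gclc (1.30 ± 0.281 CPM per kilobase of joined exons), Gclm (0.820 ± 0.169) and Hmox1 (0.372 ± 0.191) were lowest, in that order, by either length. Neighbours in the order by joined exons overlapped in their ranges over libraries, except Txnrd1 (2.78 to 3.79) and Gclc (0.941 to 1.92).

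None of the 10 genes passed the threshold in any comparison. With edgeR's quasi-likelihood test and Benjamini-Hochberg adjustment over all genes tested, 0 of 10 passed an adjusted p of 0.05 for ApoeKO_HFD against WT_CD, which asks what the knockout and the diet do together, where 0.154% of all genes passed. The count was 0 of 10 for diet in the knockout (ApoeKO_HFD against ApoeKO_CD, 0.0709% of all genes), 0 of 10 for diet in wild type (WT_HFD against WT_CD, 0.207%) and 0 of 10 for genotype on chow (ApoeKO_CD against WT_CD, 0.508%). It was also 0 of 10 for genotype on the high fat diet (ApoeKO_HFD against WT_HFD, 0.0472%) and 0 of 10 for the interaction, the genotype difference on the high fat diet minus that on chow (0.219%). With so few genes passing in all, a count of 0 among 10 does not set these genes apart. DESeq2 and limma voom also called 0 of 10 in each of the 6 comparisons.

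At an unadjusted p under 0.05, Gclm and Gpx1 were the 2 genes of the 10 that passed for ApoeKO_HFD against WT_CD, where 14.2% of all genes did. None of the 10 passed for ApoeKO_HFD against ApoeKO_CD, where 1.53% of all genes did. Gclm alone passed for WT_HFD against WT_CD (12.9% of all genes), Gclm and Gpx1 for ApoeKO_CD against WT_CD (15.9%), Gpx1 alone for ApoeKO_HFD against WT_HFD (2.83%) and Gclm alone for the interaction (8.2%). These shares of 10 genes move in steps of 1 gene and lie near those of all genes. The 3 comparisons with WT_CD share its libraries, and ApoeKO_HFD, WT_HFD and ApoeKO_CD each enter more than 1 comparison.

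The median log2 fold change of the 10 genes was 0.053 for ApoeKO_HFD against WT_CD (all tested genes −0.0079), −0.075 for ApoeKO_HFD against ApoeKO_CD (all 0.0067) and 0.17 for WT_HFD against WT_CD (all −0.013). It was 0.18 for ApoeKO_CD against WT_CD (all −0.014), −0.10 for ApoeKO_HFD against WT_HFD (all 0.011) and −0.29 for the interaction (all 0.017). Nqo1 (−0.72, SE 0.38, adjusted p = 0.65) and Gclm (−0.62, SE 0.28, adjusted p = 0.585) lay lowest in the interaction, and 8 of the 10 estimates there were below 0. For the 9 genes other than Hmox1, the 95% intervals of the 5 comparisons between groups lay between −0.91 and 1.05 on the log2 scale, so that changes of up to about a doubling lay within them. Hmox1 had the widest, up to −1.09 to 1.45 between groups (WT_HFD against WT_CD) and −2.04 to 1.44 in the interaction.

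**Figure D1:**
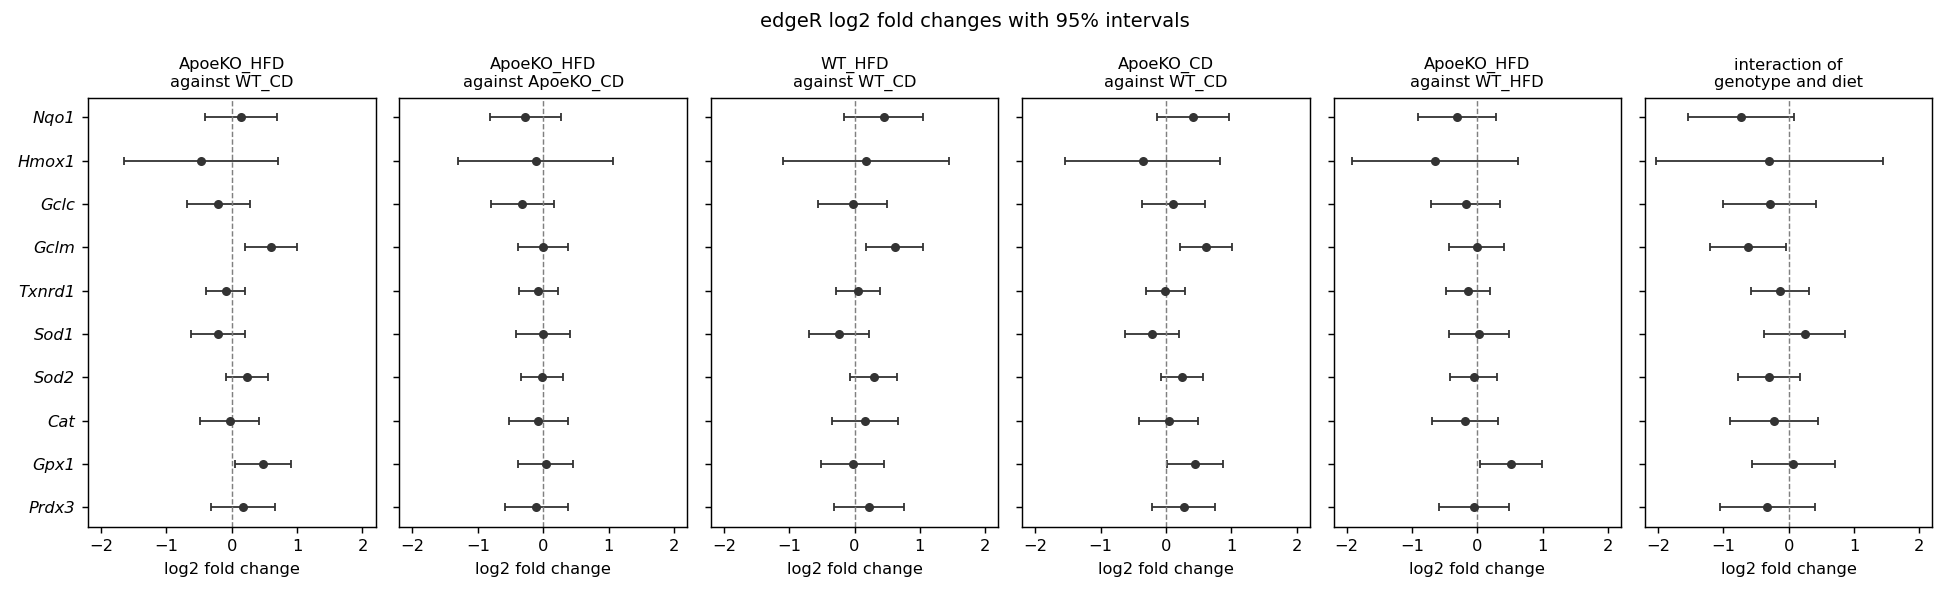
Log2 fold changes of the 10 genes (points) with 95% intervals (bars) from edgeR, 1 panel per comparison, with the first-named group over the second and the interaction at the right. Gclm lies at 0.60, 0.61 and 0.61 in the 3 comparisons with WT_CD, Hmox1 has the widest intervals, and no gene passed an adjusted p of 0.05.

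Among the inducible NRF2 targets, only the glutathione synthesis gene Gclm had groups that did not overlap, each time against WT_CD. Gclm encodes the modifier subunit of glutamate-cysteine ligase, the enzyme of the rate-limiting step of glutathione synthesis. It lies on chromosome 3 (122245557 to 122270732, plus strand, GRCm38). Gclm had 6.39, 4.70 and 5.89 CPM in the libraries labelled ApoeKO_HFD, 5.45 and 5.99 CPM in WT_HFD, 5.37, 5.73 and 6.02 CPM in ApoeKO_CD, and 4.05, 4.28 and 2.89 CPM in WT_CD. All 8 libraries of the other groups stood above the 3 of WT_CD, an arrangement that 3.95% of all tested genes showed. It was chosen after the values were seen, and this share leaves out genes with the 8 libraries below. Of the 10 genes, Gclm was the 1 without overlap for ApoeKO_HFD against WT_CD, where 15.6% of all genes had none. The same held for WT_HFD against WT_CD (24.7% of all genes) and ApoeKO_CD against WT_CD (16.6%). These 3 comparisons share the WT_CD libraries, and in none did 1 of 10 exceed the share of all genes. Gclm overlapped between ApoeKO_HFD and ApoeKO_CD (9.03% of all genes did not) and between ApoeKO_HFD and WT_HFD (21.7% did not). Group means were 5.66 ± 0.865 CPM in ApoeKO_HFD, 5.72 ± 0.381 in WT_HFD, 5.71 ± 0.324 in ApoeKO_CD and 3.74 ± 0.741 in WT_CD (SD, n = 3, 2, 3 and 3). The log2 fold change was 0.60 (SE 0.19, adjusted p = 0.192) for ApoeKO_HFD, 0.61 (SE 0.21, adjusted p = 0.248) for WT_HFD and 0.61 (SE 0.19, adjusted p = 0.144) for ApoeKO_CD, each against WT_CD. Between ApoeKO_HFD and ApoeKO_CD it was −0.0072 (SE 0.18, 95% interval −0.39 to 0.38).

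The call on Gclm turned on 1 library. Without WT_CD replicate 2, Gclm passed for ApoeKO_HFD against WT_CD (0.70, adjusted p = 0.0378) and for ApoeKO_CD against WT_CD (0.71, adjusted p = 0.0297). For WT_HFD against WT_CD it then had an adjusted p of 0.0534. Over the 11 fits that each left out a library, the adjusted p ranged between 0.0378 and 0.453 for ApoeKO_HFD and between 0.0297 and 0.356 for ApoeKO_CD against WT_CD, and the log2 fold change between 0.45 and 0.71 in both. Without WT_CD replicate 2, calls over all genes were 1304 for ApoeKO_HFD against WT_CD, where 26 were made with 11 libraries, and 1801 for ApoeKO_CD against WT_CD, where 86 were made. The unadjusted edgeR p of Gclm moved less, from 0.00506 to 0.00222 for ApoeKO_HFD and from 0.00476 to 0.00214 for ApoeKO_CD against WT_CD. Annotated Gclm exons share 244 bases on the same strand with the pseudogene Gm6061, which held 3 counts over the 11 libraries, and 296 bases on the opposite strand with Gm17494, which held 146, against 1983 for Gclm.

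Antioxidant response elements were looked for in the 250 bases before the RefSeq transcription starts (GRCm38.p6). The table of starts held 8 of the 10 genes with 10 starts, and not Hmox1 or Gclc. The element's core TGACNNNGC, read on both strands, was in 3 of the 10 windows, those of Gclm, Sod1 and the second of 3 starts of Txnrd1, against 10.2% of 32851 promoter windows of the same length. The AP-1 element TGACTCA was in 0 of the 10 windows (4.46% of all), and the GC box GGGCGG in 7 (32.7% of all). The windows of Gclm, Txnrd1 and Sod1 are shown because they hold the core, in capitals, and that of Nqo1 because it is a well-studied NRF2 target with no core in this window. In Gclm the match lay 134 to 126 bases before the start, in Txnrd1 92 to 84 and in Sod1 56 to 48, all 3 on the strand opposite to transcription. A match is a run of letters and not a measured site. The windows were chr3:122245307-122245556 (plus strand) for Gclm, chr10:82858956-82859205 (plus) for Txnrd1, chr16:90220512-90220761 (plus) for Sod1 and chr8:107403206-107403455 (minus) for Nqo1, each written in the direction of transcription.
Gclm: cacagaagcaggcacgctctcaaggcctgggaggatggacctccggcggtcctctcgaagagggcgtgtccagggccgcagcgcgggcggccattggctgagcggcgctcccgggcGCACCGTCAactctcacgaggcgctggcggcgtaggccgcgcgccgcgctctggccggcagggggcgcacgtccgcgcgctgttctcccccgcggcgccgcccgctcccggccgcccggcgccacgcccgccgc
Txnrd1: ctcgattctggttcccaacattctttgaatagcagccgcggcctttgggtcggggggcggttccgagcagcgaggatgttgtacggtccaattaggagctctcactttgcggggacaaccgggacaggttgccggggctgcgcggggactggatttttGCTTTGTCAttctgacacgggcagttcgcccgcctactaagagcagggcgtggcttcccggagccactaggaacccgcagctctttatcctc
Sod1: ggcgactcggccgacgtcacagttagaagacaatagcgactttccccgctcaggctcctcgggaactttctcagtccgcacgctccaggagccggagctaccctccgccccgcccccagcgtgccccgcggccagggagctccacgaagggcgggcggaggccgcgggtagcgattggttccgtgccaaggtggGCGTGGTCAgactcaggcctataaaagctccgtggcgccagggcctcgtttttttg
Nqo1: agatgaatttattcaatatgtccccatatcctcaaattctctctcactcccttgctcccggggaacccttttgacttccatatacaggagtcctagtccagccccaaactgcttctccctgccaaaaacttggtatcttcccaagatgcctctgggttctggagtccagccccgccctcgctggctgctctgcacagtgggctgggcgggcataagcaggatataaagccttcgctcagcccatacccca

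Of the 3 genes whose windows hold the core, Gclm had the group pattern above, while Txnrd1 and Sod1 overlapped between all groups. Txnrd1 encodes cytosolic thioredoxin reductase, a selenoprotein that keeps thioredoxin reduced, and lies on chromosome 10 (82833951 to 82897712, plus strand). It had 24.5, 21.1 and 20.3 CPM in the libraries labelled ApoeKO_HFD, 26.2 and 22.4 CPM in WT_HFD, 19.7, 25.2 and 24.7 CPM in ApoeKO_CD, and 22.3, 26.8 and 21.1 CPM in WT_CD. It was the steadiest of the 10, with a highest library 1.36 times its lowest. Its log2 fold change for ApoeKO_HFD against WT_CD was −0.091 (SE 0.14, 95% interval −0.39 to 0.21).

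Gclc, on chromosome 9 (77754535 to 77794485, plus strand), encodes the catalytic subunit that GCLM modifies. It had 5.26, 3.55 and 4.11 CPM in the libraries labelled ApoeKO_HFD, 5.01 and 4.77 CPM in WT_HFD, 4.87, 5.57 and 5.77 CPM in ApoeKO_CD, and 3.86, 7.22 and 3.95 CPM in WT_CD. WT_CD held both the highest library, replicate 2, and 2 low ones, and the groups overlapped in each comparison. Gclc thus did not share the arrangement of Gclm: its log2 fold changes against WT_CD were −0.21 (SE 0.23) for ApoeKO_HFD, −0.030 (SE 0.25) for WT_HFD and 0.11 (SE 0.23) for ApoeKO_CD, where those of Gclm were 0.60, 0.61 and 0.61. Over the 11 libraries Gclm and Gclc had a Pearson r of 0.33, and of 0.67 once each group's mean was taken off, both given as a description.

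Nqo1, on chromosome 8 (107388225 to 107403206, minus strand), encodes a quinone reductase. It had 11.6, 7.24 and 7.81 CPM in the libraries labelled ApoeKO_HFD, 12.9 and 9.22 CPM in WT_HFD, 7.85, 9.54 and 14.8 CPM in ApoeKO_CD, and 5.63, 9.93 and 8.80 CPM in WT_CD. The highest library was 2.64 times the lowest, and the spread within groups was as wide as that between them. The log2 fold change was 0.14 (SE 0.26, adjusted p = 0.842) for ApoeKO_HFD, 0.45 (SE 0.28, adjusted p = 0.52) for WT_HFD and 0.41 (SE 0.26, adjusted p = 0.449) for ApoeKO_CD, each against WT_CD.

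Hmox1, on chromosome 8 (75093621 to 75100589, plus strand), encodes haem oxygenase 1, which splits haem into biliverdin, iron and carbon monoxide. It was the least abundant of the 10, with 8 to 47 counts per library. It had 0.741, 0.448 and 0.376 CPM in the libraries labelled ApoeKO_HFD, 1.29 and 0.379 CPM in WT_HFD, 0.563, 0.795 and 0.379 CPM in ApoeKO_CD, and 0.253, 0.824 and 1.13 CPM in WT_CD. Its log2 fold change for ApoeKO_HFD against WT_CD was −0.47 (SE 0.56, 95% interval −1.65 to 0.71), an interval too wide to tell a decrease from an increase. The SD within groups was 0.86 on the log2 scale. Macrophages also express this gene. The 14 macrophage markers summed to 10.3 to 15.1 CPM in ApoeKO_HFD, 7.42 to 25.97 in WT_HFD, 7.61 to 38.7 in ApoeKO_CD and 13.1 to 23.8 in WT_CD, with Fcgr1 at 0 in WT_CD replicate 3. Of 13 tested markers, 0 had an estimate above 0 for ApoeKO_HFD against WT_CD, and their part in the values of Hmox1 was not tested. Here, as in any bulk sample, fewer cells of a type and less RNA per cell cannot be told apart.

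Of Gpx1, Sod1 and Cat, the cytosolic and peroxisomal enzymes that remove superoxide and peroxide, Gpx1 had the widest range of group means. Gpx1, on chromosome 9 (108338903 to 108340343, plus strand), encodes the selenium-dependent glutathione peroxidase that reduces hydrogen peroxide with glutathione. It had 7.49, 6.38 and 5.84 CPM in the libraries labelled ApoeKO_HFD, 4.52 and 4.70 CPM in WT_HFD, 5.94, 6.56 and 6.70 CPM in ApoeKO_CD, and 4.05, 6.51 and 3.61 CPM in WT_CD. On the high fat diet Gpx1 was the 1 of the 10 genes whose groups did not overlap, as for 21.7% of all tested genes. Its log2 fold change for ApoeKO_HFD against WT_HFD was 0.51 (SE 0.23, unadjusted p = 0.0359, adjusted p = 1). On chow it was 0.44 (SE 0.20, unadjusted p = 0.0438, adjusted p = 0.302) for ApoeKO_CD against WT_CD, and the interaction was 0.070 (SE 0.30, 95% interval −0.57 to 0.70).

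As with Gclm, leaving out WT_CD replicate 2 made Gpx1 pass, at 0.78 (adjusted p = 0.0157) for ApoeKO_HFD and 0.74 (adjusted p = 0.0147) for ApoeKO_CD against WT_CD. Over all 11 such fits the adjusted p ranged between 0.0157 and 0.575 for ApoeKO_HFD and between 0.0147 and 0.598 for ApoeKO_CD. The library left out is the highest of WT_CD for both genes, and calls over all genes also rose without it. A call that holds only without it is no call on the 3 libraries.

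**Figure D2:**
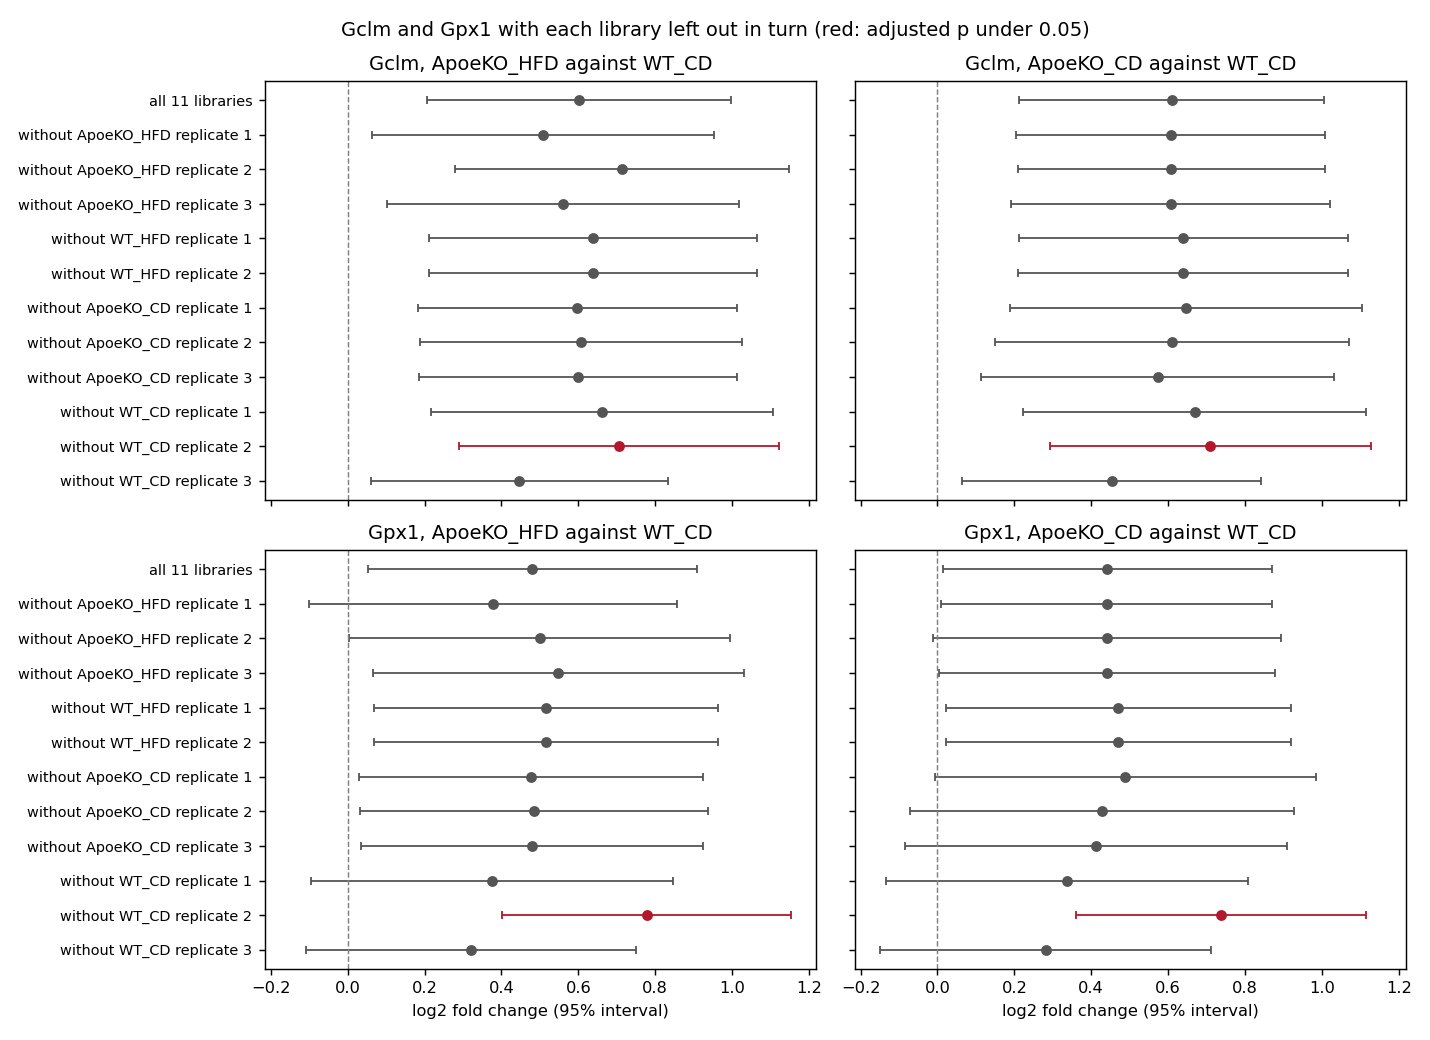
Log2 fold changes with 95% intervals (bars) of Gclm (top) and Gpx1 (bottom) for ApoeKO_HFD and ApoeKO_CD, each against WT_CD, with all 11 libraries and with each left out in turn. Red marks an adjusted p under 0.05, reached for both genes and both comparisons without WT_CD replicate 2 alone, at 0.70, 0.71, 0.78 and 0.74.

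Sod1, on chromosome 16 (90220754 to 90226329, plus strand), had 49.9, 36.9 and 36.8 CPM in the libraries labelled ApoeKO_HFD, 33.7 and 47.4 CPM in WT_HFD, 37.7, 40.4 and 45.3 CPM in ApoeKO_CD, and 32.6, 60.9 and 50.3 CPM in WT_CD. WT_CD had the lowest and both of the highest libraries. The log2 fold change lay between −0.24 and −0.22 for ApoeKO_HFD, WT_HFD and ApoeKO_CD against WT_CD (SE 0.20, 0.22 and 0.20; adjusted p = 0.648, 0.666 and 0.618). The processed pseudogene Gm8566 matches Sod1 at 97.8% of 465 bases, a stretch of 72.5% of its longest coding transcript. It held 105 counts over the 11 libraries, few beside the 989 to 2129 counts of Sod1 in each. How reads that fit both were counted was not determined here.

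Cat, on chromosome 2 (103453849 to 103485160, minus strand), had 79.0, 51.0 and 62.6 CPM in the libraries labelled ApoeKO_HFD, 72.6 and 73.7 CPM in WT_HFD, 55.3, 67.4 and 80.0 CPM in ApoeKO_CD, and 45.3, 89.9 and 62.1 CPM in WT_CD. The highest and lowest libraries were again both of WT_CD. Means were 64.2 ± 14.0 CPM in ApoeKO_HFD, 73.1 ± 0.819 in WT_HFD, 67.5 ± 12.3 in ApoeKO_CD and 65.8 ± 22.5 in WT_CD (SD, n = 3, 2, 3 and 3). The log2 fold change for ApoeKO_HFD against WT_CD was −0.033 (SE 0.21, 95% interval −0.49 to 0.42).

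The mitochondrial enzymes were abundant and did not separate the groups. Sod2, on chromosome 17 (13006846 to 13040063, plus strand), had 193.7, 160.3 and 169.3 CPM in the libraries labelled ApoeKO_HFD, 163.4 and 199.9 CPM in WT_HFD, 158.9, 170.4 and 199.96 CPM in ApoeKO_CD, and 127.5, 180.3 and 137.8 CPM in WT_CD. Replicates 1 and 3 of WT_CD stood below every other library. The log2 fold change was 0.23 (SE 0.15, adjusted p = 0.506) for ApoeKO_HFD, 0.29 (SE 0.17, adjusted p = 0.474) for WT_HFD and 0.25 (SE 0.15, adjusted p = 0.432) for ApoeKO_CD, each against WT_CD. Stretches of at least 200 bases of Sod2 match transcripts of 11 other genes at 90% identity or more. The best match to each gene held 200 to 210 bases, or 3.41% to 3.58% of the longest coding transcript of Sod2.

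Prdx3, on chromosome 19 (60864051 to 60874556, minus strand), encodes the peroxiredoxin of the mitochondrial matrix. It had 44.7, 27.5 and 25.5 CPM in the libraries labelled ApoeKO_HFD, 31.0 and 36.5 CPM in WT_HFD, 29.9, 37.4 and 37.7 CPM in ApoeKO_CD, and 19.9, 38.4 and 28.6 CPM in WT_CD. In ApoeKO_HFD replicate 1 stood apart from the other replicates, and all groups overlapped. The log2 fold change for ApoeKO_HFD against WT_CD was 0.17 (SE 0.23, 95% interval −0.31 to 0.65).

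**Figure D3:**
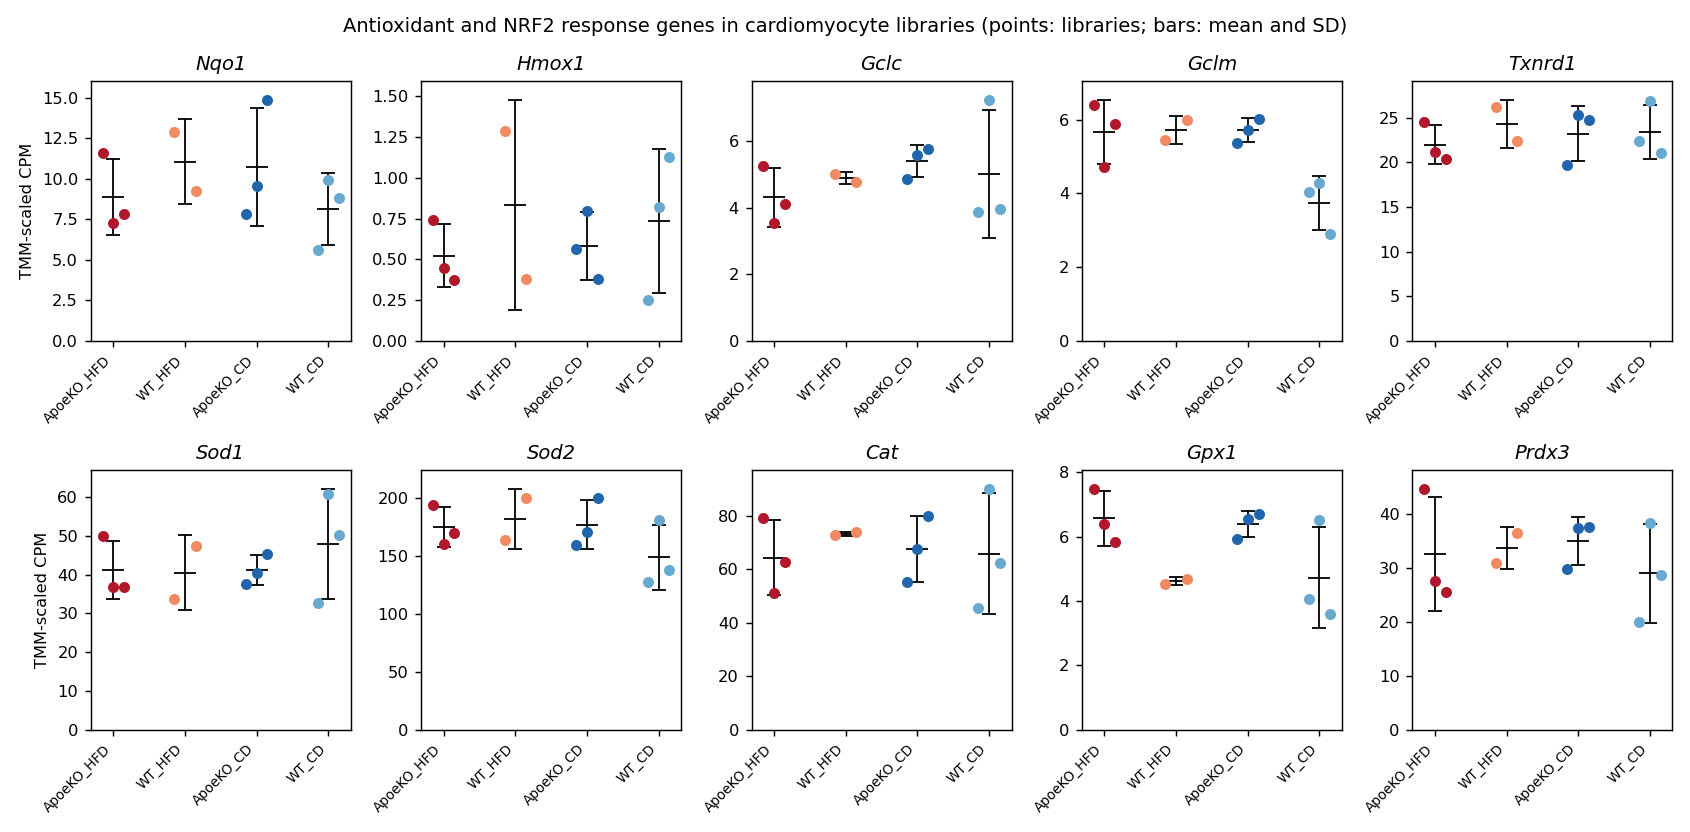
Levels of the 10 genes in TMM-scaled CPM by group (points are libraries, bars mean and SD), each panel with its own axis starting at 0. For Gclm the WT_CD libraries (2.89 to 4.28) lie below all others, and for Gpx1 both WT_HFD libraries (4.52 and 4.70) lie below those of ApoeKO_HFD (5.84 to 7.49).

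WT_CD replicate 1 was the lowest of the 11 libraries for 6 of the 10 genes, where 15.1% of all tested genes had their lowest value there. The median log2 deviation of the 10 genes from their medians over libraries was −0.49 in WT_CD replicate 1, against 0.29 in WT_CD replicate 2, 0.27 in ApoeKO_HFD replicate 1 and 0.21 in ApoeKO_CD replicate 3. The highest value fell in 1 of the 4 libraries with the lowest mitochondrial share for 9 of the 10 genes (35.5% of all tested genes), Hmox1 being the exception. These 4 were ApoeKO_CD replicate 3 (51.5%), ApoeKO_HFD replicate 1 (55.4%), WT_CD replicate 2 (57.4%) and ApoeKO_CD replicate 2 (57.8%), while the other 7 had 62.9% to 71.3%. They came from 3 of the groups. Both patterns were chosen after the values were seen, and the part of the mitochondrial share in the levels was not tested.

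**Figure D4:**
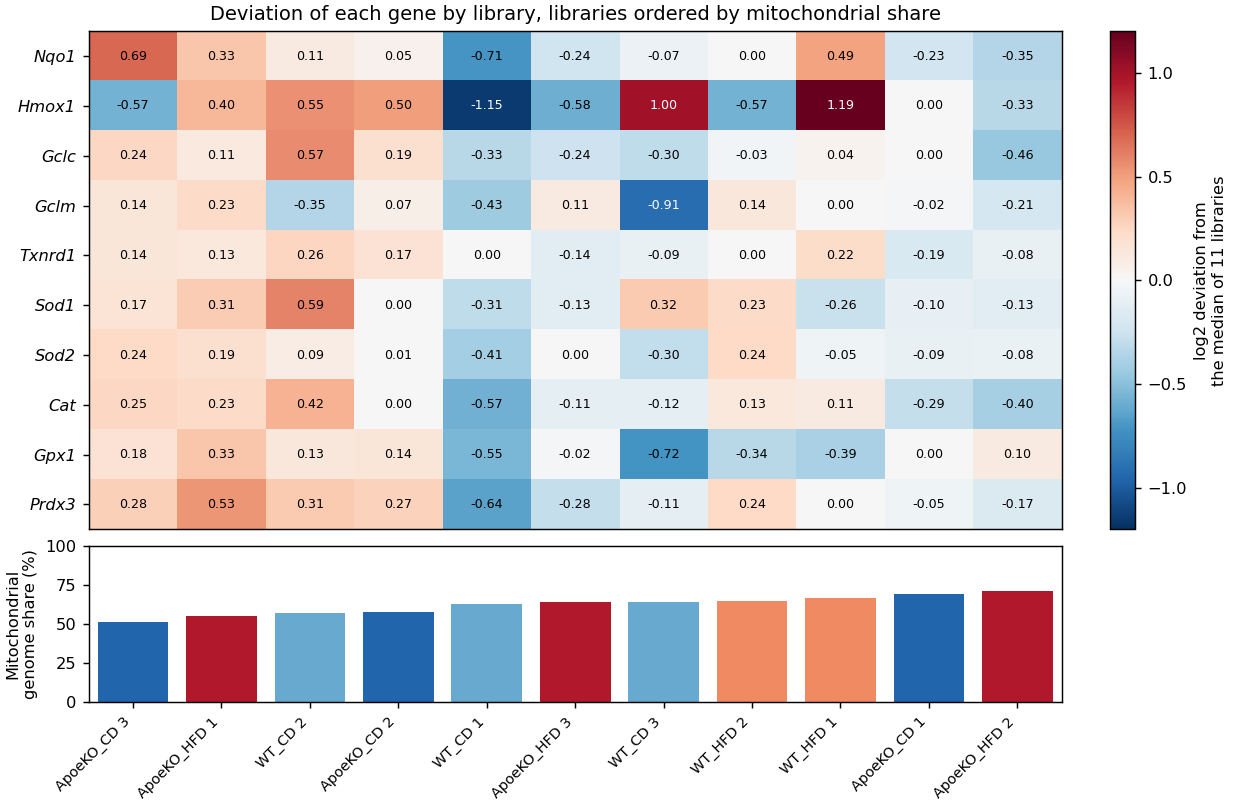
Log2 deviation of each gene from its median over the 11 libraries (colour and number), libraries ordered by the share of counts on the mitochondrial genome, which the bars below give in percent, coloured by group. In WT_CD replicate 1 the median is −0.49 and 9 of the 10 genes are among their 3 lowest libraries, and 9 of 10 have their highest value among the 4 libraries at the left.

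Of the 45 pairs among the 10 genes, Cat and Prdx3 were most alike over the 11 libraries (Pearson r = 0.86, Spearman rho = 0.88 on log2 CPM) and Hmox1 and Gclm least (r = −0.24). Among protein-coding genes with a mean log2 CPM of at least 3, those most like Gclm were Tox4 (r = 0.97; 0.88 without the 2 libraries farthest from its median) and Usp32 (r = 0.97; 0.90). Those most like Gpx1 were Mgrn1 (0.96) and Dmxl2 (0.91), and those most like Sod2 were Cul2 and Dnm1l (both 0.98). Prdx3 was most like Fkbp3 and Smpx (both 0.98), Cat most like Rab11a and Hadhb (both 0.95), and Sod1 most like Ndufa2 (0.97) and Rps18 (0.96). For Txnrd1 they were Prkca (0.97) and Tmem109 (0.89), for Nqo1 Strip2 (0.93) and Pygb (0.92), for Gclc Vcp and Adh5 (both 0.92) and for Hmox1 Son (0.90) and Junb (0.88). All are the highest of 4825 or 4826 values each, over libraries that share depth, mitochondrial share and group, and are given without a test. Without the 2 libraries farthest from the median of the gene in question, r ran from 0.80 (Dmxl2) to 0.97 (Fkbp3).

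Beyond the 10, the wider antioxidant lists held 167 other genes, of which 149 were tested. For ApoeKO_HFD against WT_CD, 0 were called (12 at an unadjusted p under 0.05, or 8.05%, against 14.2% of all tested genes). In each of the other 5 comparisons 1 was called, Blvrb each time. At an unadjusted p under 0.05 the counts were 3 for ApoeKO_HFD against ApoeKO_CD, 11 for WT_HFD against WT_CD, 15 for ApoeKO_CD against WT_CD, 5 for ApoeKO_HFD against WT_HFD and 8 for the interaction, or 2.01%, 7.38%, 10.1%, 3.36% and 5.37%. The shares of all tested genes were 1.53%, 12.9%, 15.9%, 2.83% and 8.2% in the same order.

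The 13 genes that sense and transmit the NRF2 signal were all tested and none was called. Nfe2l2 had 17.4, 12.7 and 13.2 CPM in the libraries labelled ApoeKO_HFD, 16.4 and 16.6 CPM in WT_HFD, 17.4, 18.0 and 17.6 CPM in ApoeKO_CD, and 20.4, 18.2 and 17.1 CPM in WT_CD. Its log2 fold change for ApoeKO_HFD against WT_CD was −0.36 (SE 0.14, adjusted p = 0.262). Keap1 had −0.16 (SE 0.14, adjusted p = 0.627) and Bach1, a repressor of Hmox1, −0.026 (SE 0.18, adjusted p = 0.963). Mafk, a small MAF partner of NRF2, had 9.09 ± 0.431 CPM in ApoeKO_HFD, 10.05 ± 0.687 in WT_HFD and 10.3 ± 0.867 in ApoeKO_CD, against 14.4 ± 0.850 in WT_CD (SD, n = 3, 2, 3 and 3). Its log2 fold change for ApoeKO_HFD against WT_CD was −0.66 (SE 0.13, adjusted p = 0.0579), and it passed with DESeq2 (adjusted p = 0.000829), with RLE size factors (0.0443), with the stricter filter (0.0391) and without WT_CD replicate 2 (0.008). It did not pass with the mitochondrial genome left out (0.0571), limma voom (0.0725), no filter (0.104), the replicate block (0.110), only the groups compared (0.166), all 12 libraries (0.999) or any other library left out (up to 0.261).

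In the glutathione list 36 of 42 genes were tested and 0 called, with a median of 0.083 for ApoeKO_HFD against WT_CD. Slc7a11, the cystine importer, had 2 to 30 counts per library and −1.55 (SE 0.65, adjusted p = 0.293). All 20 genes of the thioredoxin and peroxiredoxin list were tested and 0 called. Srxn1, sulfiredoxin, which repairs peroxiredoxins, had 6.06 ± 0.519 CPM in ApoeKO_CD and 4.65 ± 0.814 CPM in WT_CD (0.39, SE 0.18, adjusted p = 0.31). Sod3, the extracellular superoxide dismutase, had 5.30 ± 1.74 CPM in ApoeKO_HFD, 7.37 ± 0.0343 in WT_HFD and 5.33 ± 0.484 in ApoeKO_CD, against 9.26 ± 0.969 in WT_CD. Its log2 fold change was −0.80 for both ApoeKO_HFD (SE 0.20, adjusted p = 0.109) and ApoeKO_CD (SE 0.20, adjusted p = 0.0722) against WT_CD, and without WT_CD replicate 2 both passed (adjusted p = 0.0294 and 0.0225). DESeq2 also called both (adjusted p = 0.015 and 0.0113), as did no filter on low counts (0.046 and 0.0285), while with limma voom neither passed. For ApoeKO_CD it passed with the stricter filter (0.0476) and without ApoeKO_HFD replicate 1 (0.030) too. Over the other fits the adjusted p reached 0.999 for ApoeKO_HFD and 0.928 for ApoeKO_CD, both with all 12 libraries. In that setting calls over all genes fell in every comparison, the one given for Mafk among them. Of 11 endothelial markers, 1 had an estimate above 0 for ApoeKO_HFD, 7 for WT_HFD and 0 for ApoeKO_CD, each against WT_CD. They summed to 90.6 to 134.3 CPM in ApoeKO_HFD, 120.9 to 190.9 in WT_HFD, 75.4 to 101.8 in ApoeKO_CD and 73.8 to 172.3 in WT_CD, with 0 markers at 0 counts, and their part was not tested. Of 8 pericyte and smooth muscle markers, 6, 6 and 4 had an estimate above 0 in the same 3 comparisons. Of 9 fibroblast markers 7, 8 and 6 did, and the part of these cell types was not tested either.

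Ferritin heavy chain Fth1, which stores iron, had −0.40 (SE 0.15, adjusted p = 0.248) and light chain Ftl1 −0.52 (SE 0.17, adjusted p = 0.204) for ApoeKO_HFD against WT_CD. The list of selenoproteins and of the genes that insert selenocysteine, the residue at the active site of GPX1 and TXNRD1, had 13 of 17 estimates above 0 for ApoeKO_HFD against WT_CD, a median of 0.26 against −0.0079 over all genes, and 0 calls. It also had 13 of 17 above 0 for WT_HFD (median 0.34) and ApoeKO_CD (0.27) against the same WT_CD libraries. For ApoeKO_HFD against ApoeKO_CD (median −0.031) and against WT_HFD (−0.025), 7 of 17 were above 0. Selenot had 53.4 ± 5.64 CPM in ApoeKO_HFD, 52.0 ± 5.52 in WT_HFD and 58.9 ± 3.69 in ApoeKO_CD, against 33.6 ± 13.7 in WT_CD. Its log2 fold change was 0.67 (SE 0.20, adjusted p = 0.191) for ApoeKO_HFD and 0.81 (SE 0.20, adjusted p = 0.0786) for ApoeKO_CD against WT_CD, and without WT_CD replicate 2 both passed (1.03 and 1.17, adjusted p = 0.00239 and 0.000433). Both also passed with no filter on low counts (0.000639 and 5.63e-06), and ApoeKO_CD with DESeq2 (0.0128) and limma voom (0.00991). Selenot passed in neither comparison under the other settings, with an adjusted p of up to 0.999 and 1. Of genes for sources of reactive oxygen species 16 of 23 were tested and 0 called. Cybb, the catalytic subunit of the phagocyte NADPH oxidase, had 0.311, 0.299 and 0.927 CPM in ApoeKO_HFD, 1.21 and 0.401 in WT_HFD and 1.27, 1.03 and 0.354 in ApoeKO_CD, against 0.443, 0.157 and 0 CPM in WT_CD, at 0 to 45 counts in any library. Against WT_CD, Cybb had a log2 fold change of 1.32 for ApoeKO_HFD (SE 0.82, adjusted p = 0.482), 1.93 for WT_HFD (SE 0.85, adjusted p = 0.358) and 2.07 for ApoeKO_CD (SE 0.80, adjusted p = 0.222), and the interaction was −2.69 (SE 1.11, adjusted p = 0.562). For ApoeKO_CD against WT_CD it passed with no filter on low counts (adjusted p = 0.0245). Cbr2, a carbonyl reductase, had 0.144, 0.187 and 0.276 CPM in ApoeKO_HFD, against 1.35, 1.75 and 0.253 CPM in ApoeKO_CD (−2.44, SE 0.69, adjusted p = 1). Cbr2 passed there with no filter on low counts (−2.42, edgeR adjusted p = 0.0225) and in no other setting. The summed macrophage markers were also highest in the first 2 of these ApoeKO_CD libraries, at 10.9, 10.3 and 15.1 CPM in ApoeKO_HFD, against 38.7, 35.0 and 7.61 CPM in ApoeKO_CD, and their part was not tested.

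**Figure D5:**
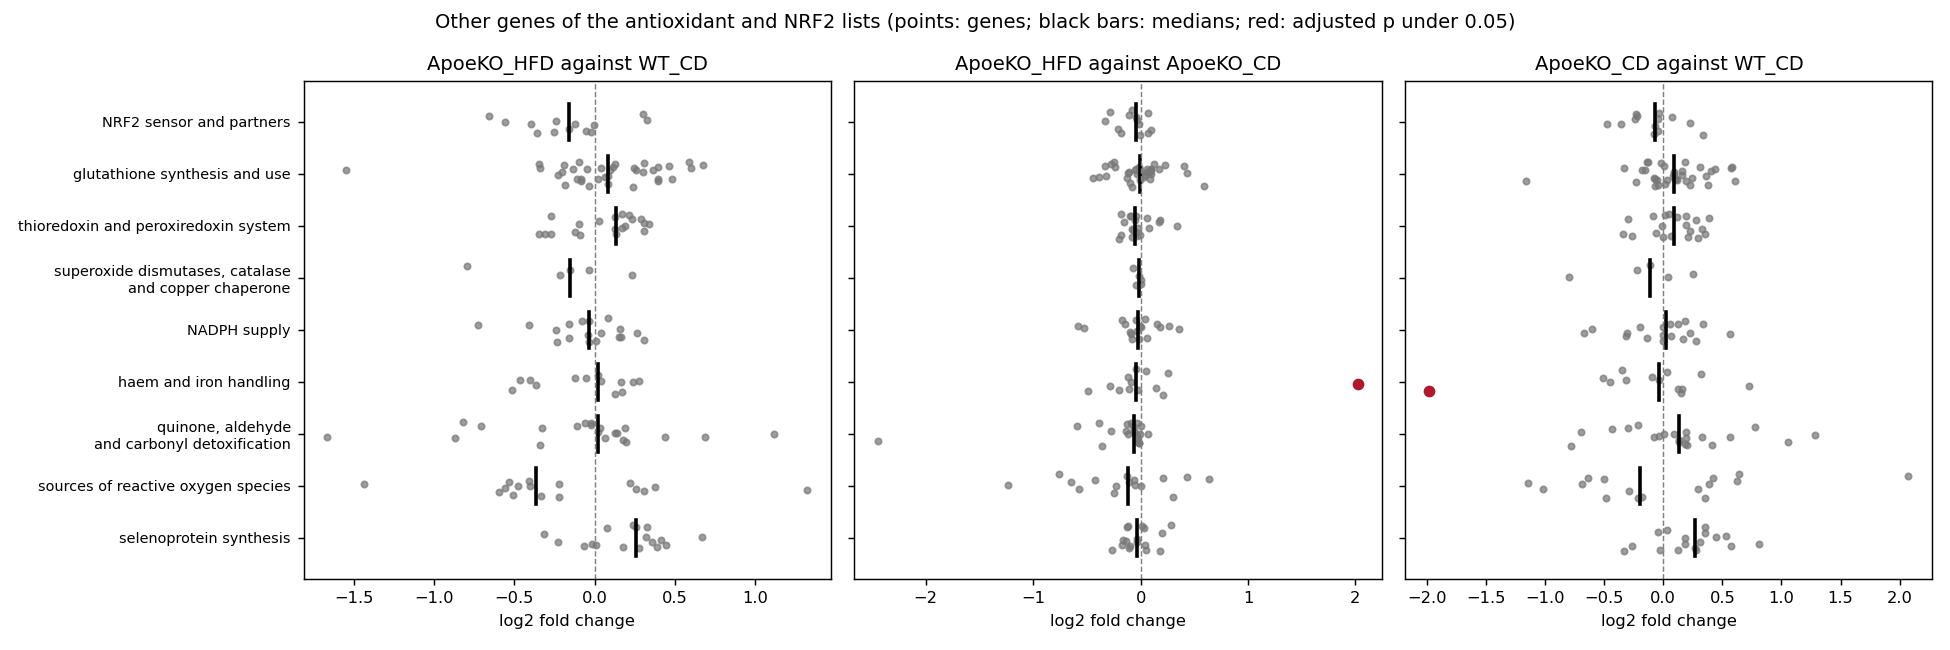
Log2 fold changes of the tested genes of the 9 antioxidant lists, the 10 genes included (points), with list medians (black bars), for 3 comparisons. Blvrb, in red, is the 1 gene with an adjusted p under 0.05, at 2.02 for ApoeKO_HFD against ApoeKO_CD and −1.98 for ApoeKO_CD against WT_CD.

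Blvrb, which encodes biliverdin reductase B, had 4.999, 4.33 and 3.36 CPM in the libraries labelled ApoeKO_HFD, 0.685 and 0.868 CPM in WT_HFD, 0.900, 1.15 and 1.09 CPM in ApoeKO_CD, and 3.07, 5.69 and 3.61 CPM in WT_CD. Diet comparisons thus ran in opposite directions in the genotypes as labelled: on the log2 scale it rose by 2.02 (SE 0.27, adjusted p = 0.00199, edgeR) in ApoeKO_HFD against ApoeKO_CD and in WT_HFD against WT_CD it fell by 2.40 (SE 0.32, adjusted p = 0.00281). Both calls were lost with all 12 libraries (2.02, adjusted p = 0.173, and −2.24, adjusted p = 0.0959), and the second also without WT_HFD replicate 1 (adjusted p = 0.127) and with only the groups compared (adjusted p = 0.0548). The calls for ApoeKO_CD against WT_CD (−1.98, SE 0.28, adjusted p = 0.00136) and ApoeKO_HFD against WT_HFD (2.44, SE 0.32, adjusted p = 0.00211) were lost with all 12 libraries too (adjusted p = 0.101 and 0.167), and the last also without WT_HFD replicate 1 (adjusted p = 0.0963). With all 12 libraries, calls over all genes fell in every comparison, as given below. For ApoeKO_HFD against WT_CD the value of Blvrb was 0.041 (SE 0.25, adjusted p = 0.958). Blvrb lies on the chromosome of Apoe, whose group means were low in ApoeKO_HFD and WT_CD, where those of Blvrb were high. None of the 10 genes lies on that chromosome.

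In WT_HFD replicate 3 the 10 genes held 0 (Gclc) to 101 (Sod2) counts. With this library included, 0 of 10 genes were called in any comparison, and the estimate for WT_HFD against WT_CD changed sign for Txnrd1, Sod2, Cat and Prdx3.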

How the data were processed

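RNA of cardiomyocytes was sequenced from libraries made with a stranded SMART-Seq kit, per the labels' protocols. The deposited values are whole-number counts per Ensembl gene, made by the authors, and the submitters' processing notes name Trimmomatic 0.39, STAR 2.7a, HTSeq 0.13.5 and the build GRCm38 (mm10), with no options or roles given. Symbols and coordinates came from GENCODE M21. Of 55335 identifiers 55154 had a symbol.

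The counts of 11 libraries (22130323 to 46424614 per library) were fitted together with edgeR 4.0.16 in R 4.3.3: TMM scaling, edgeR's filter on low counts by group, which left 16932 genes, and the robust quasi-likelihood test with 1 mean per group (7 residual degrees of freedom). Two-sided p-values were adjusted by Benjamini-Hochberg over all tested genes within each of 6 comparisons; called means an adjusted value below 0.05. Each standard error is the log2 fold change over the square root of F. WT_HFD replicate 3 was left out of the fit. Over the 10 pairs of replicates within groups, chi-square per degree of freedom was 24.5 to 189.65 in genes with at least 20 counts. No library was thus a second copy of another of its own group. Libraries of different groups were not compared in this way. The fitting script was tested on simulated data.

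The 10 genes, the wider lists and the cell type markers were chosen with earlier results of these data known. The 10 genes were named throughout, and of each wider list the called genes and up to 2 with the smallest p per comparison; Nfe2l2, Keap1 and Bach1 were named for their roles. Alternatives were RLE size factors, DESeq2 1.42.0, limma 3.58.1 voom with sample weights, no filter on low counts, a filter of 50 counts in 3 libraries, the mitochondrial genome left out, only the groups compared, a replicate block, all 12 libraries, and each library left out. The length of the longest coding transcript, for levels per kilobase, was an alternative chosen after seeing the data.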

Additional observations from a re-analysis of the deposited data

Results flagged for a closer look

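Blvrb had an interaction of genotype and diet of 4.42 on the log2 scale (SE 0.42, edgeR adjusted p = 1.85e-05): the diet differences of the libraries labelled ApoeKO and WT differed in a test of that difference. Apoe had an interaction of −5.04 (SE 0.76, edgeR adjusted p = 0.0427), with means of 2.71 CPM in ApoeKO_HFD, 13.7 in WT_HFD, 18.7 in ApoeKO_CD and 2.88 in WT_CD. That call was lost with RLE size factors (adjusted p = 0.0519), all 12 libraries (0.051), no filter on low counts (0.123), limma voom (0.222) and the replicate block (0.276), and in 7 of the 11 fits without 1 library (up to 0.167), while the value stayed between −5.55 and −4.39. In WT_HFD replicate 3, which the comparisons do not use, 64.4% of the counts on 1437 pairs of overlapping genes on opposite strands were on the non-coding partner (95% Wilson interval 64.2% to 64.6%, counting error only), against 0.292% to 0.428% in the other 11 libraries.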

How the results depend on the processing

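Of 1184 values of the 10 genes under alternatives, 1087 kept their sign and 97 changed it (60 with a library left out and 37 otherwise), and 4 were called, all without WT_CD replicate 2. The cause of the changes was not tested. The number of called genes, ApoeKO_HFD against WT_CD, was 26 in the fit reported, 214 with DESeq2, 35 with RLE size factors, 23 without the mitochondrial genome, 33 with limma voom, 296 with no filter on low counts, 32 with the filter of 50 counts, 12 with only the groups compared, 14 with the replicate block and 0 with all 12 libraries, and 0 to 1304 with a library left out (fewest without ApoeKO_HFD replicate 2 or ApoeKO_HFD replicate 3, most without WT_CD replicate 2). The number of called genes, ApoeKO_HFD against ApoeKO_CD, was 12 in the fit reported, 20 with DESeq2, 12 with RLE size factors, 12 without the mitochondrial genome, 23 with limma voom, 26 with no filter on low counts, 11 with the filter of 50 counts, 16 with only the groups compared, 9 with the replicate block and 1 with all 12 libraries, and 6 to 14 with a library left out (fewest without ApoeKO_HFD replicate 2 or ApoeKO_CD replicate 2, most without WT_CD replicate 2). The number of called genes, WT_HFD against WT_CD, was 35 in the fit reported, 173 with DESeq2, 40 with RLE size factors, 34 without the mitochondrial genome, 45 with limma voom, 272 with no filter on low counts, 43 with the filter of 50 counts, 9 with only the groups compared, 19 with the replicate block and 1 with all 12 libraries, and 4 to 1019 with a library left out (fewest without WT_HFD replicate 1, most without WT_CD replicate 2). The number of called genes, ApoeKO_CD against WT_CD, was 86 in the fit reported, 432 with DESeq2, 93 with RLE size factors, 79 without the mitochondrial genome, 69 with limma voom, 475 with no filter on low counts, 128 with the filter of 50 counts, 38 with only the groups compared, 61 with the replicate block and 3 with all 12 libraries, and 37 to 1801 with a library left out (fewest without ApoeKO_CD replicate 3, most without WT_CD replicate 2). The number of called genes, ApoeKO_HFD against WT_HFD, was 8 in the fit reported, 28 with DESeq2, 8 with RLE size factors, 8 without the mitochondrial genome, 39 with limma voom, 49 with no filter on low counts, 8 with the filter of 50 counts, 24 with only the groups compared, 7 with the replicate block and 1 with all 12 libraries, and 4 to 20 with a library left out (fewest without WT_HFD replicate 1, most without WT_CD replicate 2). The number of called genes, interaction of genotype and diet, was 37 in the fit reported, 90 with DESeq2, 36 with RLE size factors, 36 without the mitochondrial genome, 72 with limma voom, 105 with no filter on low counts, 39 with the filter of 50 counts, 27 with the replicate block and 8 with all 12 libraries, and 20 to 285 with a library left out (fewest without WT_HFD replicate 1, most without WT_CD replicate 2). Called among the 10 genes were 0 to 2 with a library left out for ApoeKO_HFD and for ApoeKO_CD against WT_CD, and 0 otherwise. Of 15 same-numbered pairs of libraries, 1 had a correlation of deviations above 0.1 (range −0.180 to 0.190). Pairs with different numbers were not compared, so these values do not settle whether the replicate numbers pair the libraries. Without the filter on low counts the median of all genes moved by 0.12 for WT_HFD against WT_CD and by −0.11 for the interaction.

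With limma voom, the sign changed in Cat at 0.0076 for ApoeKO_HFD against WT_CD, Sod1 at −0.069 and Gpx1 at −0.0076 for ApoeKO_HFD against ApoeKO_CD, Gclc at 0.12 and Gpx1 at 0.079 for WT_HFD against WT_CD, Hmox1 at 0.13 and Txnrd1 at 0.012 for ApoeKO_CD against WT_CD, Sod1 at −0.041 for ApoeKO_HFD against WT_HFD, Gpx1 at −0.087 in the interaction of genotype and diet. With no filter on low counts, the sign changed in Cat at 0.049 for ApoeKO_HFD against WT_CD, Gclm at 0.0032 for ApoeKO_HFD against ApoeKO_CD, Gclc at 0.087 and Gpx1 at 0.087 for WT_HFD against WT_CD, Txnrd1 at 0.061 for ApoeKO_CD against WT_CD, Sod1 at −0.013 for ApoeKO_HFD against WT_HFD, Gpx1 at −0.038 in the interaction of genotype and diet. With RLE size factors, the sign changed in Sod1 at −0.0077 for ApoeKO_HFD against ApoeKO_CD. Without the mitochondrial genome, the sign changed in Sod1 at −0.016 for ApoeKO_HFD against ApoeKO_CD. With DESeq2, the sign changed in Sod1 at −0.0079 for ApoeKO_HFD against ApoeKO_CD. With the filter of 50 counts, the sign changed in Sod1 at −0.0057 for ApoeKO_HFD against ApoeKO_CD. With only the groups compared, the sign changed in Sod1 at −0.00064 for ApoeKO_HFD against ApoeKO_CD. With all 12 libraries, the sign changed in Txnrd1 at −0.22, Sod2 at −0.094, Cat at −0.33 and Prdx3 at −0.057 for WT_HFD against WT_CD, Nqo1 at 0.024, Gclc at 0.16, Gclm at 0.20, Txnrd1 at 0.12, Sod2 at 0.32, Cat at 0.29 and Prdx3 at 0.22 for ApoeKO_HFD against WT_HFD, Gclc at 0.056, Txnrd1 at 0.14, Sod2 at 0.077 and Cat at 0.26 in the interaction of genotype and diet. With the replicate block, the sign changed in Gclm at 0.014 for ApoeKO_HFD against WT_HFD.

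For ApoeKO_HFD against WT_CD, leaving out a library gave Nqo1 −0.098 to 0.31, Gclc −0.37 to 0.15, Txnrd1 −0.17 to 0.018, Cat −0.25 to 0.26, Prdx3 −0.12 to 0.43, Apoe −0.27 to 0.10. For ApoeKO_HFD against ApoeKO_CD, leaving out a library gave Nqo1 −0.51 to 0.028, Hmox1 −0.47 to 0.16, Gclm −0.098 to 0.10, Sod1 −0.15 to 0.075, Sod2 −0.092 to 0.076, Cat −0.24 to 0.067, Gpx1 −0.063 to 0.11, Prdx3 −0.40 to 0.034. For WT_HFD against WT_CD, leaving out a library gave Hmox1 −0.89 to 0.87, Gclc −0.20 to 0.32, Txnrd1 −0.021 to 0.21, Sod1 −0.46 to 0.032, Cat −0.061 to 0.45, Gpx1 −0.19 to 0.27. For ApoeKO_CD against WT_CD, leaving out a library gave Hmox1 −0.79 to 0.11, Gclc −0.050 to 0.47, Txnrd1 −0.086 to 0.095, Cat −0.17 to 0.33. For ApoeKO_HFD against WT_HFD, leaving out a library gave Hmox1 −1.30 to 0.46, Gclm −0.10 to 0.10, Sod1 −0.21 to 0.28, Sod2 −0.21 to 0.087, Prdx3 −0.35 to 0.084. For the interaction of genotype and diet, leaving out a library gave Hmox1 −0.98 to 0.78, Sod1 −0.022 to 0.47, Gpx1 −0.23 to 0.23.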

Other observations

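Among the 149 other tested genes of the antioxidant lists, 77 (51.7%) had their highest value in 1 of the 4 libraries with the lowest mitochondrial share, and 32 (21.5%) had their lowest in WT_CD replicate 1, where 35.5% and 15.1% of all tested genes did. Atrial cardiomyocyte markers varied widely: 7 markers summed to 20.2 to 87.8 CPM in the libraries labelled ApoeKO_HFD, 9.44 to 200.9 in WT_HFD, 110.2 to 130.6 in ApoeKO_CD and 76.7 to 135.7 in WT_CD, with 0 of 7 called in any comparison. Fibroblast markers summed to 24.9 to 36.8 CPM in ApoeKO_HFD, 36.3 to 40.6 in WT_HFD, 17.3 to 36.7 in ApoeKO_CD and 21.8 to 30.4 in WT_CD, with 0 of 9 called.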
